A study of Mus musculus with 2 samples.

Results

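Ceramide and sphingolipid synthesis was followed through 10 genes, Sptlc1, Sptlc2, Sptssa, Sptssb, Cers2, Degs1, Degs2, Fa2h, Ugcg and B4galt6, in mouse back skin taken at an age of 10 days. The genes were selected on the log2 ratios between these same arrays, and their probe sets were found as those whose annotated gene symbol, or its current form, was 1 of these names. They make up 10 of the 12393 genes that could be named on the array and hold 20 of its 22690 probe sets. The K14Ahr mice were transgenic and carried in their keratinocytes an aryl hydrocarbon receptor (AhR) that is always active, whereas the normal receptor is a transcription factor that needs a ligand. The WT mice were littermates without the transgene. K14 is the usual short name of keratin 14, a keratin of basal keratinocytes, and the labels name it only in the title of the transgenic array. Skin was peeled off, cut up and homogenised whole, so dermis, hair follicles and immune cells were measured together with the epidermis. Each genotype was measured on 1 array with biotin-labelled total RNA, which makes 2 arrays. The labels give neither the number of animals behind an array nor the strain or founder line. With no replicates there is no test, and each ratio below compares these 2 arrays only.

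Ceramides are built on the endoplasmic reticulum. Serine palmitoyltransferase joins serine to an acyl-CoA, ceramide synthases add a second acyl chain, and a desaturase or hydroxylase then finishes the sphingoid base. Head groups are attached later, which gives glucosylceramide, lactosylceramide and sphingomyelin. In skin, ceramides with very long and hydroxylated chains form the water barrier of the cornified layer, and hydroxylated sphingolipids are also made in sebaceous glands and in myelin.

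Signals are in the arbitrary linear units of the deposited table, where both arrays had a 2% trimmed mean of 100.03. A floor of 34.7, the 40th percentile of all signals, was used to keep ratios of dim probe sets from growing without limit, and a probe set counted as measured when 1 or both of its signals exceeded the floor. The log2 ratio is that of the K14Ahr over the WT signal, so a positive value means higher in K14Ahr skin, and each gene was represented by its brightest probe set. Genes were called at a 2-fold difference, a log2 ratio of 1 in either direction. All 10 genes were measured, and each representing probe set was above the floor on both arrays. As a technical yardstick, the log2 ratios of the 2 brightest probe sets of a gene differed with an SD of 0.36 over 2535 genes. That SD describes probe sets of these 2 arrays and says nothing of the spread between animals.

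The synthesis genes did not differ together. Within the set of 10, 7 genes were close to equal or higher on the K14Ahr array. The other 3 were lower, Sptssb (an alternative subunit), Fa2h (chain hydroxylation) and B4galt6 (a later glycolipid step). The split did not follow the steps of the pathway. The other alternative subunit gene, Sptssa, and the other glycolipid gene, Ugcg, were among the 7. Outside the set, the ceramide synthase genes Cers4 and Cers5 were lower too, with log2 ratios of -1.01 and -0.68. Of the 10 genes 1 was at least 2-fold higher, where 2.27% of the 8894 measured genes were. Of the 10 genes 3 were at least 2-fold lower, where 1.09% of measured genes were. These 4 calls are a description, since the genes were picked with the same ratios in view. The median log2 ratio of the 10 genes was 0.16 with 7 above 0 and 3 below, against a median of -0.05 over all measured genes. From the lowest member, Fa2h, to the highest, Degs1, the ratios spanned 3.04 log2 units.

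**Figure D1:**
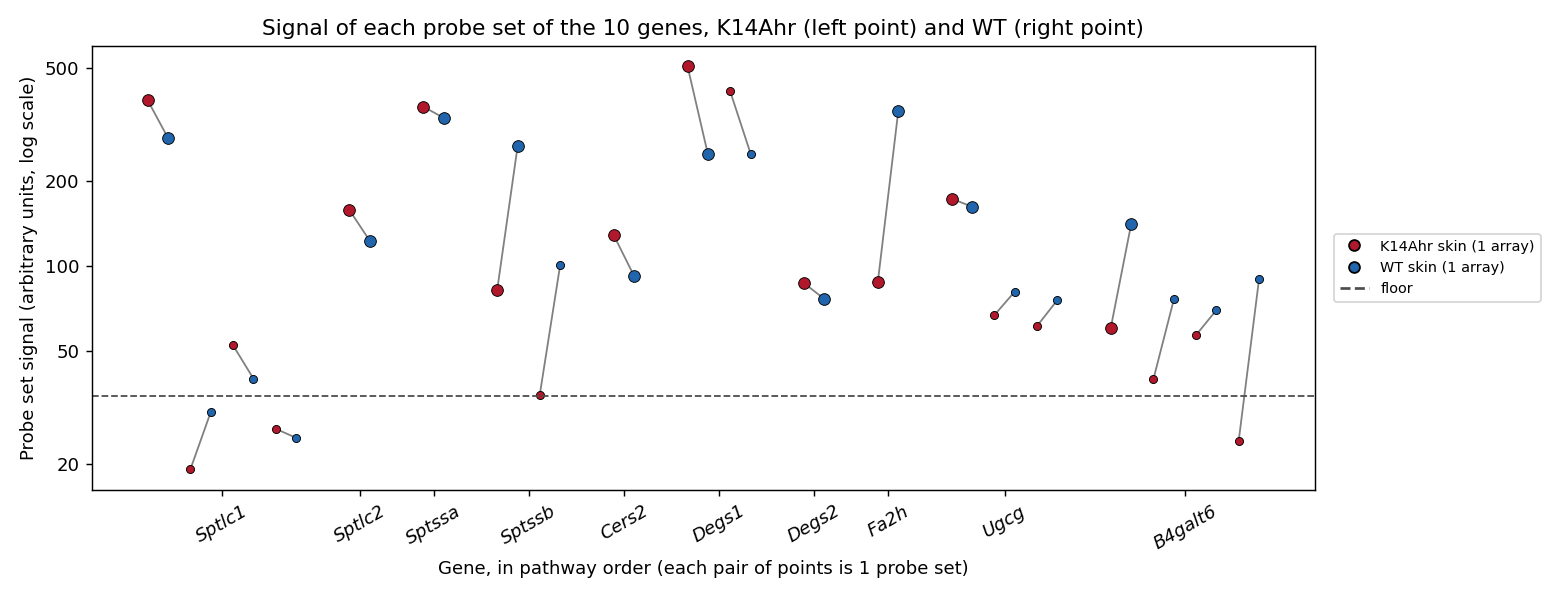
Signal of all 20 probe sets of the 10 genes on a log axis, in pathway order. Each pair of joined points is 1 probe set, with the K14Ahr array on the left in red and the WT array on the right in blue. The larger points mark the brightest probe set of a gene, and the dashed line is the floor of 34.7. The steepest pairs belong to Sptssb, Fa2h and B4galt6, with the K14Ahr point below the WT point. B4galt6 also has a flatter pair (57.0 in K14Ahr and 69.9 in WT skin).

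The first enzyme of the pathway is a complex of a heavy-chain pair and a small subunit. Sptlc1, the subunit that carries no active site itself, read 385 on the K14Ahr array and 283 on the WT array at its brightest probe set (1422690_at), a log2 ratio of 0.45. A second Sptlc1 probe set (1436726_s_at) read 52.5 in K14Ahr and 40 in WT skin, a log2 ratio of 0.39, and its other 2 were dimmer than the floor on both arrays. Both measured probe sets therefore pointed the same way, with ratios well inside 2-fold. Sptlc2, the catalytic partner, read 158 in K14Ahr and 123 in WT skin at its only probe set (1460243_at), a log2 ratio of 0.36. Sptssa, 1 of 2 alternative small subunits that raise the activity of the complex, read 366 in K14Ahr and 334 in WT skin (1448388_a_at). Its log2 ratio of 0.13 was smaller than the spread between probe sets of a gene.

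Sptssb, the other small subunit, which shifts the enzyme towards longer acyl-CoA substrates, went the opposite way. Its brighter probe set (1417803_at) read 82.2 on the K14Ahr array and 265 on the WT array, 3.22-fold lower in K14Ahr skin. The second probe set (1417802_at) read 35.1 in K14Ahr skin, just above the floor, and 101 in WT skin, a log2 ratio of -1.53 beside -1.69 for the first. The 2 probe sets thus gave nearly the same ratio at different brightness. Among the 7972 genes whose signals both exceeded the floor, so that their ratios are no bounds, Sptssb ranked 4th from the lowest. Among the 4 measured genes of the complex it was the only member that was lower on the K14Ahr array.

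Cers2, the ceramide synthase that prefers very long acyl chains, read 129 in K14Ahr and 92.2 in WT skin (1423955_a_at), a log2 ratio of 0.48. Degs1, the desaturase that turns dihydroceramide into ceramide, was the highest member. Its probe sets read 509 in K14Ahr against 248 in WT skin (1423346_at) and 415 in K14Ahr against 250 in WT skin (1423345_at). The ratios were 2.05-fold and, on the log2 scale, 1.04 for the first and 0.73 for the second, so the call at 2-fold rests on the brighter probe set. Their mean was 0.89, under the limit. Degs1 stood 149th from the highest of the 7972 genes without a bound, inside the upper tail and not at its end. The nearest genes in ratio were Rbp7, Mt1 and Rpl27a below it and Pycard, Lcp1 and Sox7 above it, all within 0.006 of it. Degs2, its relative that hydroxylates the base and makes phytoceramides in epidermis, read 87.0 in K14Ahr and 76.4 in WT skin (1424549_at), a log2 ratio of 0.19.

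Fa2h, the hydroxylase that makes the 2-hydroxy fatty acids used in hydroxylated ceramides and in myelin galactolipids, had the largest difference of the 10. It read 87.9 on the K14Ahr array and 353 on the WT array at its only probe set (1426960_a_at), 4.02-fold lower in K14Ahr skin. It ranked 2nd from the lowest of the 7972 genes without a bound, after the matrix protein gene Mfap4 (-2.23). Genes with a K14Ahr signal under the floor have ratios that are upper bounds. Where such a bound lies below the -2.01 of Fa2h, the gene was lower than Fa2h. Where it lies above, the order against Fa2h is not known. Nearest below Fa2h besides Mfap4 were Hamp2 (at most -2.37) and Cyp2g1 (at most -2.70), and nearest above were Sec24b (at most -1.89), Tlcd4 (-1.87) and Dpp4 (at most -1.72). Nearness in ratio is measured over 2 arrays and describes rank alone. No second probe set was there to check Fa2h, and its name carries a letter suffix, which on these arrays marks probe sets that can match more than 1 transcript.

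Genes that add sugar head groups were split. Ugcg, the glucosylceramide synthase on which the barrier lipids of the epidermis depend, read 173 in K14Ahr and 162 in WT skin at its brightest probe set (1421268_at), a log2 ratio of 0.09. Its dimmer probe sets gave -0.28 (67.0 in K14Ahr and 81.2 in WT skin, 1421269_at) and -0.31 (61.3 in K14Ahr and 75.8 in WT skin, 1435133_at). The 3 probe sets of Ugcg thus disagree on the sign, by amounts close to the SD of 0.36 between probe sets of a gene. B4galt6, a lactosylceramide synthase that acts on the product of Ugcg, was lower by all of its 4 probe sets. The brightest (1435758_at) read 60.5 in K14Ahr and 141 in WT skin, 2.33-fold lower. The others read 39.8 in K14Ahr and 76.2 in WT skin (1423228_at, -0.94), 57.0 in K14Ahr and 69.9 in WT skin (1450913_at, -0.29), and 24 in K14Ahr and 90.1 in WT skin (1460329_at). The last has a K14Ahr signal under the floor, and its ratio is at most -1.38. The 4 agree in sign and differ in size, and their mean of -0.96 lies just inside 2-fold. B4galt6 ranked 26th from the lowest of the 7972 genes without a bound.

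**Figure D2:**
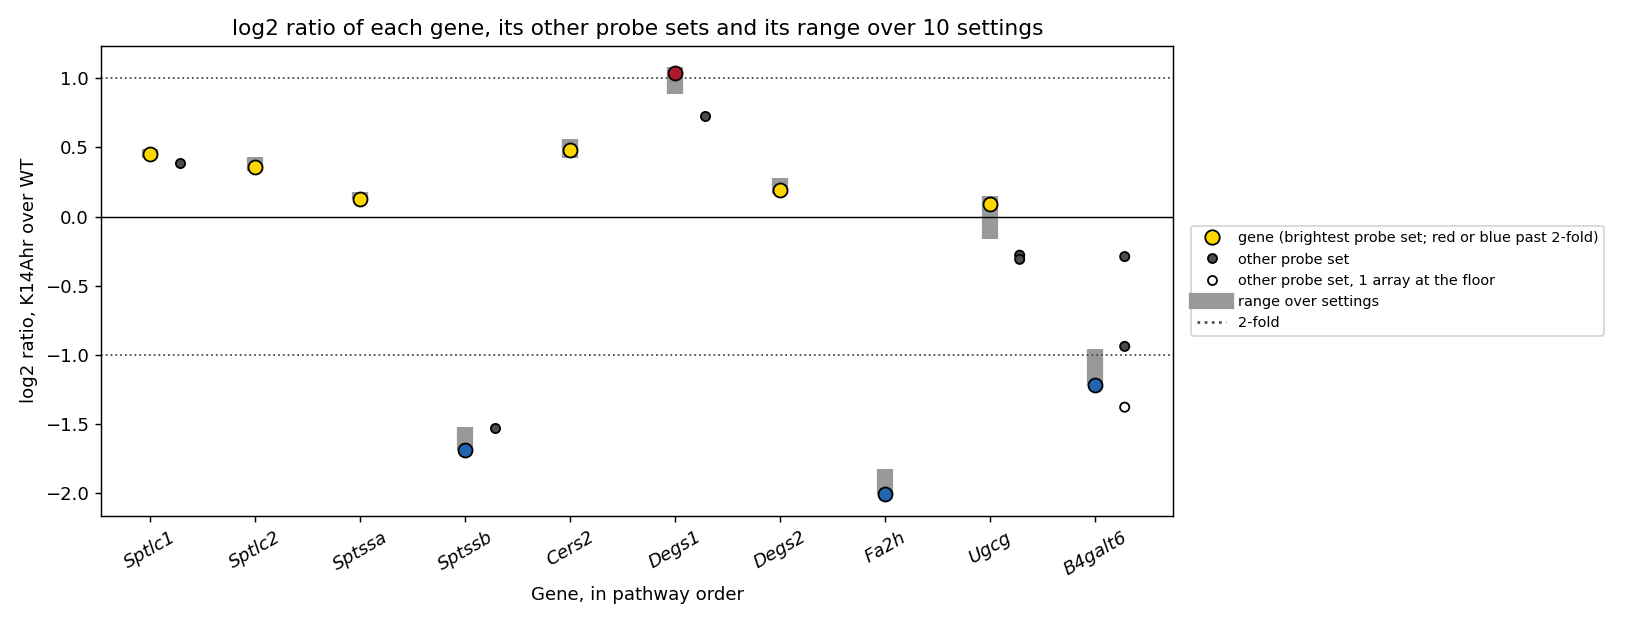
log2 ratio of K14Ahr over WT for each gene in pathway order. Large points are the brightest probe set, small points the other measured probe sets (open where 1 array was at the floor), grey bars the range over all settings of the calculation, and dotted lines the 2-fold limits. Sptssb and Fa2h lie beyond the lower limit over their whole bar, the bars of Degs1 and B4galt6 cross a limit, and that of Ugcg crosses 0.

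**Figure D3:**
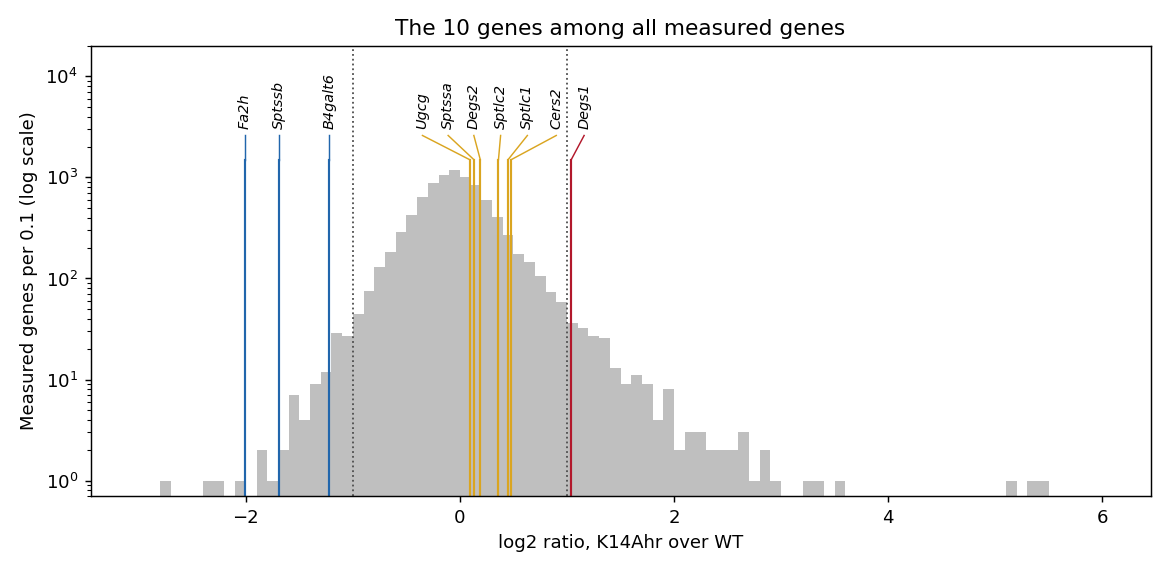
Number of measured genes per 0.1 of log2 ratio, on a log axis, with the 10 genes marked by coloured lines. Fa2h, Sptssb and B4galt6 lie in the lower tail, Degs1 just past the upper 2-fold limit (dotted), and the other 6 genes between 0.09 and 0.48.

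The AhR binds DNA with its partner ARNT at sites built on the letters GCGTG. Promoter windows of 300 bases, from 250 before to 50 after the gene's start, came from RefSeq (GRCm38.p6). They were available for 8 of the 10 genes, 9 windows in all. Fa2h and B4galt6, both lower on the K14Ahr array, had none. On either strand, GCGTG was found in 5 of these 9 windows, and in 32.4% of all 32851 windows of that length. The longer TNGCGTG, which contains the shorter word, was found in 1 of 9 windows, that of Ugcg, and in 5.07% of all. The windows of the highest member, Degs1, and of the lowest member with a window, Sptssb, are shown 5′ to 3′ for comparison, with GCGTG or its reverse complement in capitals. The Degs1 window lies at chr1:182282146-182282445 and the Sptssb window at chr3:69859845-69860144, both on the minus strand.
Degs1: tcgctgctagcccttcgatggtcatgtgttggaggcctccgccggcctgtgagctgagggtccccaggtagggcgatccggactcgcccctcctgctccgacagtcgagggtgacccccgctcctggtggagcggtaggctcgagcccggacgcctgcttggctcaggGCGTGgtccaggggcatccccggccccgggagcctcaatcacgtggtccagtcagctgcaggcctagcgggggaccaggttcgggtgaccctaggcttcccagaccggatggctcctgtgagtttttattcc
Sptssb: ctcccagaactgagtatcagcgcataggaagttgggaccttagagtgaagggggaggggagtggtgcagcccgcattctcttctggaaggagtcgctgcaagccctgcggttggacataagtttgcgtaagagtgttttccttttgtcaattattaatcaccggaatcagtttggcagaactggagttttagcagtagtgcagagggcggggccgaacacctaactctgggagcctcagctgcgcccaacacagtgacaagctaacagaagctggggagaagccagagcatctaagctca
The Degs1 window holds the word 1 time, beginning at -82 from the gene's start, and the Sptssb window does not hold it. Sptssa and Ugcg, whose log2 ratios were 0.13 and 0.09, held it 2 times each in theirs. A match describes the letters of a window and is not evidence of binding, and no match says only that these letters are absent from it.

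To place the 10 genes in the pathway, 74 further sphingolipid genes were listed by role. Of these 55 were named on the array and 50 were measured. None of the 50 was at least 2-fold higher (2.27% of measured genes were) and 2 were at least 2-fold lower (1.09%), Elovl6 and Cers4. Their median log2 ratio was -0.08, with 22 above 0 and 28 below, beside -0.05 over all measured genes. The count of higher genes rests on the floor. With a lower floor (20th percentile) and with a pseudocount of 16 instead, B4galnt1 (2.46 and 1.70) and Alox12b (1.80 and 1.49) passed 2-fold, since their WT signals were under the floor of 34.7.

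Around the first enzyme, 1 further gene was measured, while Sptlc3, Ormdl2, Ormdl3 and Kdsr were not named on the array. Ormdl1, which encodes an inhibitor of serine palmitoyltransferase, read 107 in K14Ahr and 162 in WT skin, a log2 ratio of -0.60. The list of this complex, with the members, had a median of 0.13 over 5 genes. Among ceramide synthases, Cers4 and Cers5 were lower where Cers2 was higher, and Cers1, Cers3 and Cers6 were not named on the array. Cers4 read 80.3 in K14Ahr and 162 in WT skin, 2.02-fold lower, by its brightest probe set (under the limit in 4 of the other settings), and 49.3 in K14Ahr and 158 in WT skin by another, while its remaining probe set was dimmer than the floor on both. Cers5 read 244 in K14Ahr and 392 in WT skin, a log2 ratio of -0.68. The list of synthases, desaturases and hydroxylase had a median of -0.25 over 6 genes, with Degs1 called higher and Fa2h and Cers4 called lower.

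Head group and transfer genes were measured for 10 of 14 named. Ugt8a, which makes the galactosylceramide of myelin, and Cert1, the ceramide transfer protein gene, were dimmer than the floor on both arrays, as were St8sia1 and A4galt. Of the measured genes B4galt6 was the only call, and the median was -0.06. B4galnt1, a ganglioside synthase gene, read 65.7 in K14Ahr skin and lay under the floor in WT skin (9.2), a log2 ratio of at least 0.92 with this floor. Gltp, a glycolipid transfer protein gene, read 1174 in K14Ahr and 988 in WT skin, a log2 ratio of 0.25. Samd8, a relative of the sphingomyelin synthases, was at -0.49. B4galt5, the other lactosylceramide synthase gene, read 37.4 in K14Ahr skin and 28.4, under the floor, in WT skin, so its ratio of at least 0.11 is near the detection limit used here.

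The 19 measured genes of sphingolipid breakdown held no call in either direction, and their median was -0.09. Acer1, the alkaline ceramidase of differentiating epidermis, read 167 in K14Ahr and 299 in WT skin (-0.84), and Galc, the galactosylceramidase, 66.0 in K14Ahr and 116 in WT skin (-0.81). These were the lowest of the list. At the other end stood Hexa, a subunit of lysosomal hexosaminidase, at 0.50 and Arsa, the sulfatide sulfatase, at 0.46. The 11 genes of sphingosine 1-phosphate, a signalling product of ceramide breakdown, had the highest median of the lists, 0.20, also with no call. Sphk1, a kinase that makes it, read 209 in K14Ahr and 141 in WT skin (0.57), and the receptor gene S1pr3 was at least 0.29. The lowest were the receptor gene S1pr4 (-0.28) and the transporter gene Spns2 (-0.27).

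For the long acyl chains and the lipid envelope of the cornified layer, 14 genes were listed and 9 were named on the array. All 9 were measured, with a median of -0.11. Cyp4f39, Pnpla1, Abca12, Nipal4 and Ephx3 were not named on the array, so nothing can be said of them. Elovl6, which lengthens palmitate to stearate, read 244 in K14Ahr and 641 in WT skin, 2.63-fold lower, and its second probe set gave -2.03. Elovl1, which makes very long saturated chains, read 712 in K14Ahr and 366 in WT skin, a log2 ratio of 0.96 just under the call, and its other probe sets gave 0.87 and 0.84. Both genes therefore had probe sets that pointed the same way, in opposite directions. Slc27a4, a fatty acid transport protein gene needed for the barrier in mice, was at -0.54, and Aloxe3, a lipoxygenase gene of the lipid envelope, at 0.40.

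**Figure D4:**
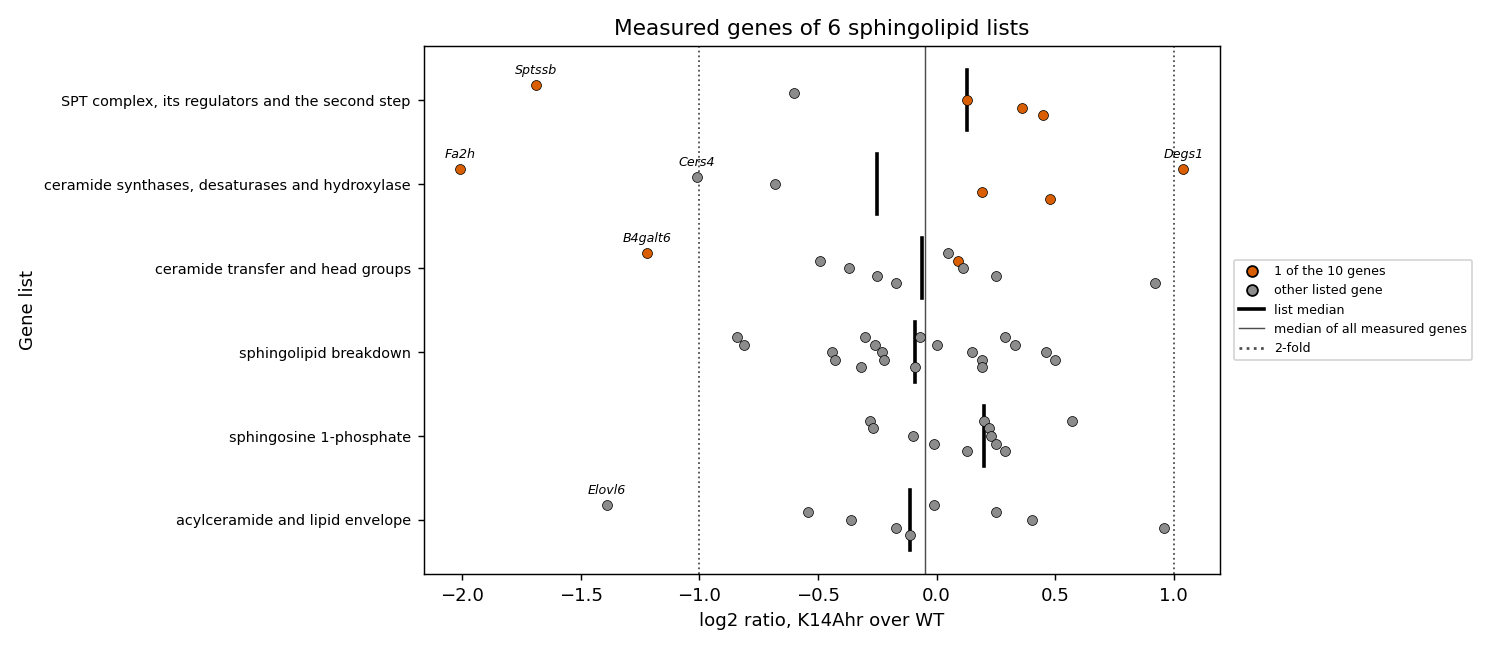
log2 ratio of K14Ahr over WT for every measured gene of 6 sphingolipid lists. Orange points are members of the set of 10, grey points other listed genes, short black bars list medians, the thin grey line the median of all measured genes and dotted lines the 2-fold limits, with genes past them named. Calls fall in the first 3 lists and in the last, and the lists of breakdown and of sphingosine 1-phosphate have none.

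Markers of several skin cell types differed between the arrays too. In whole skin, fewer cells of a type and less RNA per cell cannot be told apart. Of 15 measured hair follicle genes 14 were lower on the K14Ahr array, none by 2-fold, and their summed signal was 27519 in K14Ahr and 33070 in WT skin. All 5 measured melanocyte genes were lower, 3 of them at least 2-fold (Tyr and Tyrp1 were lowest), and the sum was 1290 in K14Ahr and 2572 in WT skin. Of 10 measured skeletal muscle genes 9 were lower, Myh8 by at least 2.42-fold, with sums of 5197 in K14Ahr and 6436 in WT skin. The part of these shifts in the lower signals of Fa2h, Sptssb and B4galt6 was not tested.

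Sebaceous gland genes were mixed. Of 9 measured, 6 were lower and 3 higher, and their summed signal was 7716 in K14Ahr and 7303 in WT skin. The desaturase genes Scd3 (62.6 in K14Ahr and 163 in WT skin, 2.61-fold) and Scd1 (679 in K14Ahr and 1456 in WT skin, 2.14-fold) were lower, and Krt79, a keratin of the gland duct, was 2.37-fold higher (2435 in K14Ahr and 1028 in WT skin). Without Krt79 the sum was 5282 in K14Ahr and 6275 in WT skin, so the direction of the sum rests on that gene. Fabp5, which the epidermis expresses too, gave 2852 of the K14Ahr and 2498 of the WT sum, and the defining factor gene Pparg was dimmer than the floor on both arrays. Myelin genes of Schwann cells, where hydroxylated sphingolipids are also made, gave 4 of 7 measured genes above 0, none of them called. The summed signal of this list was 1156 in K14Ahr and 1066 in WT skin, with Cldn19 below the floor on both arrays. Most of that sum came from Pmp22 (374 in K14Ahr and 324 in WT skin) and Egr2 (353 in K14Ahr and 291 in WT skin). The myelin protein genes Mbp (-0.35) and Mal (-0.21) were lower, and the transcription factor gene Sox10 was at -0.05. Mag and Ncmap, above 0, are bounds, which leaves Pmp22 and Egr2 as the genes above 0 without a bound. The part of sebaceous, Schwann or epidermal cells in the Fa2h signal was not tested. Adipocyte genes had sums of 3108 in K14Ahr and 3325 in WT skin, with no call among 5 measured and Lep below the floor on both arrays.

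Most listed epidermal genes and all listed macrophage genes were higher, as Degs1 was. The 8 basal keratinocyte genes, 6 above 0 and 2 below, had a median log2 ratio of 0.62. Their sums were 8161 in K14Ahr and 6017 in WT skin. Itgb4, a hemidesmosome integrin, was called higher (2.02-fold) and Krt15, a keratin of basal cells and the follicle bulge, lower (2.69-fold). The 8 suprabasal genes, 6 above 0 and 2 below, had a median of 1.15 and sums of 14629 in K14Ahr and 5543 in WT skin. Of these 4 were called higher, led by Krt1 (6.12-fold) and Calm4 (4.75-fold), and Ivl was 2.83-fold lower. Of the 11 macrophage genes all were higher and 8 were called, led by C1qa (6.01-fold) and Mrc1 (5.39-fold), with sums of 2683 in K14Ahr and 890 in WT skin. How much of the higher Degs1 signal went with these cells was not tested. The defining keratinocyte markers of skin were present on both arrays, with Krt14 at 3328 in K14Ahr and 1987 in WT skin.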

How the data were processed

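The labels describe total RNA of whole back skin, a biotin label and 1 array for each genotype. The values deposited by the authors are linear signal intensities, 1 per probe set, already scaled, since both arrays have a 2% trimmed mean of 100.03. Their software, not given in the sources used here, is unknown. The number of arrays limits the precision, and no test was possible with 1 per group.

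Of 22626 probe sets that are no controls, 20380 had 1 gene in the platform annotation of 2016, 691 several and 1555 none, and those with 1 gene were named. Current symbols were looked up by gene identifier in a GRCm38.p6 table. Signals were rescaled to equal trimmed means, raised to the floor of 34.7 and put on the log2 scale (Python 3.11.15, numpy 2.4.6, pandas 2.3.3, scipy 1.17.1, statsmodels 0.14.6). The brightest probe set represented a gene. The arithmetic was checked on simulated arrays in which bright genes carried planted ratios. That check says nothing of the noise of these arrays or of dim genes. Alternatives were other scalings and centrings, other floors, a pseudocount of 16, other rules for a gene's probe set and limits of 1.5-fold and 3-fold.

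Members, lists and alternatives were chosen with earlier results of these data known. Named are all members, of each pathway list every call and the 2 highest and 2 lowest genes, of each marker list up to 2 calls in each direction, and the 3 genes nearest in ratio to Fa2h and to Degs1 on each side. Genes outside this rule were named after the results were seen.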

Additional observations from a re-analysis of the deposited data

How the results depend on the processing

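No paired analysis was possible because each genotype has 1 array, and for the same reason no array could be left out. The median log2 ratio of measured genes lay between -0.05 and 0 in every setting tried. Sptssb was at least 2-fold lower in 10 of 10 settings (log2 ratio -1.69 to -1.52). Fa2h was so in the 9 settings that gave it a value (-2.01 to -1.83), since its 1 probe set carries a suffix. B4galt6 was so in 8 of 10, the exceptions being the mean over probe sets (-0.96) and the floor at the 60th percentile (just inside the limit), and each left 0 lower genes among the head group genes. Degs1 was at least 2-fold higher in 8 of 10. It was under the limit with the pseudocount (0.99) and with the mean over probe sets (0.89), where 0 members and 0 synthase list genes were called higher. The sign of Ugcg turned with the mean over probe sets (-0.16).

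The count of higher genes over the whole array was 393 with the floor at the 20th percentile, 123 at the 60th, 605 at a limit of 1.5-fold and 61 at 3-fold. The lower genes numbered 257, 45, 567 and 9 in the same settings, and at 3-fold 0 members were higher. The lower genes of the synthase list numbered 1, not 2, with median centring, quantile normalization, lowess centring and the pseudocount, where Cers4 was under the limit (-0.97, -0.97, -0.94 and -0.89), and without suffixed probe sets, where Fa2h has no value. The lipid envelope list had 1 higher gene, not 0, with median centring (Elovl1), the floor at the 20th percentile and the pseudocount (both Alox12b), and the head group list 1 with the last 2 of these (B4galnt1). List medians moved by less than the SD between probe sets in every setting, but the sign turned for the list of the first enzyme without suffixed probe sets (-0.12) and for the head group list without suffixed probe sets (0.05) and with lowess centring (0.03). Ranks over genes without a bound and the sebaceous sum without Krt79 were chosen after seeing the data. Signals near the floor limit what can be said of B4galt5, B4galnt1 and S1pr3.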
